A study of Homo sapiens with 6 samples.

Results

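ZNF is the symbol stem given to human genes for zinc finger proteins, and 99 such genes were expressed in KYSE70 cells by the rule used here. The rule took the rows named ZNF plus a number whose RPKM (reads scaled for transcript length and library size) averaged at least 2 over 6 libraries. It kept 99 of the 544 ZNF rows, or 18.2%, out of 48644 gene rows in all, and left 445 ZNF rows under the threshold. The members were thus chosen by their measured mean level, so the height of a member's level is a description and carries no test. Of the rows it left out, 62 were at 0 in all 6 libraries.

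KYSE70 is an established cell line from a human esophageal squamous carcinoma. Its cells carried a stable pLKO vector with a doxycycline-controlled short hairpin RNA against TP63 (shTP63) or SOX2 (shSOX2), the genes of 2 transcription factors of squamous epithelium. The study asked what suppressing either factor does to gene expression. Induced shTP63 cells had 50 ng/ml doxycycline for 4 days (2 libraries), and uninduced shTP63 cells had none (day 0, 1 library). Induced shSOX2 cells were treated in the same way (2 libraries), against untreated shSOX2 cells (day 0, 1 library). All 6 libraries thus came from cells with an integrated hairpin vector, and cells without a hairpin or with a control hairpin are not analysed here. The induced libraries are numbered 2 and 1 and both uninduced ones 2, and the labels do not say whether the numbers mark separate cultures or separate hairpins. P-values therefore measure only the spread between these libraries, which may be technical. If the numbers mark hairpins, the induced libraries numbered 1 have no uninduced library with the same hairpin.

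A classical C2H2 zinc finger is a short fold in which a pair of cysteines and a pair of histidines hold a zinc ion, and strings of such fingers read DNA sequence. Many human ZNF proteins also carry a KRAB box, which recruits the corepressor TRIM28 and through it the histone methyltransferase SETDB1 and heterochromatin proteins. KRAB zinc finger genes lie in large clusters, chiefly on chromosome 19, and many of their products silence transposable elements. A SCAN domain, found in a smaller subgroup, joins zinc finger proteins into dimers. Other proteins with the ZNF symbol act outside transcription, in ribosome assembly and surveillance, splicing or spindle attachment.

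Values below are the deposited levels, read as log2(RPKM + 1), and a difference between levels is on that scale and understates the change of a gene near 0. Depth per library is unknown, because the deposited values share 1 distribution. The uninduced shTP63 library stood apart from the others, with 16167 genes above 0 against 21530 to 23509 elsewhere, and with 363 ZNF rows above 0 against 429 to 448. The TP63 hairpin differences of the genes named for it, their median and the counts of calls and of size were also computed with the uninduced shSOX2 library in place of this single day 0 library. Results that combine both responses were not. The targeted genes had the lower levels in their own induced lines. TP63 had 2.26 and 2.11 in induced shTP63 libraries, against 3.99 in the uninduced one. SOX2 had 5.65 and 4.67 in induced shSOX2 libraries, against 6.25 in the uninduced one. In the shTP63 line SOX2 had 5.55 and 5.41 in induced libraries and 5.69 in the uninduced one. The induced shSOX2 library at 5.65 thus lay within the range of the shTP63 line. TP63 had 3.91 and 3.93 in induced shSOX2 libraries and 3.61 in the uninduced one, all above the induced shTP63 libraries. Neither difference passed limma's test over all genes, with an adjusted p of 0.131 for TP63 and 0.469 for SOX2. Squamous markers summed to 580 to 2.86e+03 RPKM, leukocyte markers to 0 to 0.384, endothelial markers to 0.176 to 0.821 and fibroblast markers to 1.83 to 5.42, nearly all of the last from COL1A1.

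The promoters of 4 members are shown because these genes had the smallest p-values for the mean response of both lines. ZNF467, ZNF362 and ZNF32 were higher, and ZNF593 was lower, in all 4 induced libraries than in the uninduced library of the same line. Each sequence holds 250 bases before and 50 after the RefSeq start of the gene, from the GRCh38.p14 table and on the gene's own strand. The windows are chr7:149773539-149773838 on the minus strand for ZNF467, chr1:33256242-33256541 on the plus strand for ZNF362, chr10:43648832-43649131 on the minus strand for ZNF32 and chr1:26169658-26169957 on the plus strand for ZNF593. Capitals mark a GC box (GGGCGG) or the core of the ZNF143 motif (ACTACAA) on either strand.
ZNF467: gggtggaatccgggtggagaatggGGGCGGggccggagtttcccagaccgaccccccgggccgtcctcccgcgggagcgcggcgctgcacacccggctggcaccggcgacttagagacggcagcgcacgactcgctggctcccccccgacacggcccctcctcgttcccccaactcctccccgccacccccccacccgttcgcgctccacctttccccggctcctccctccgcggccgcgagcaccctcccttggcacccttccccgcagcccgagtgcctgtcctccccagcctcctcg
ZNF362: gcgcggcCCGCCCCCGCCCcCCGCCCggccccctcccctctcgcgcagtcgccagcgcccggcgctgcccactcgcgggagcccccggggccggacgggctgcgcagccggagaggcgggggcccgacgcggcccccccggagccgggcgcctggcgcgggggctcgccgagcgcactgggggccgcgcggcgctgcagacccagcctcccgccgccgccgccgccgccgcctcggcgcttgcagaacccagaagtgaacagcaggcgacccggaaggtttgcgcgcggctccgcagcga
ZNF32: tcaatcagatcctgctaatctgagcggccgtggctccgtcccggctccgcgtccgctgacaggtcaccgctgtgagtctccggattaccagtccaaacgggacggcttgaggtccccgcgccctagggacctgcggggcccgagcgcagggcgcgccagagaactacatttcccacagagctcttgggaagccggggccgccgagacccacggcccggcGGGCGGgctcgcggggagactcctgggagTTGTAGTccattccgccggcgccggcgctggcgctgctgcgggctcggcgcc
ZNF593: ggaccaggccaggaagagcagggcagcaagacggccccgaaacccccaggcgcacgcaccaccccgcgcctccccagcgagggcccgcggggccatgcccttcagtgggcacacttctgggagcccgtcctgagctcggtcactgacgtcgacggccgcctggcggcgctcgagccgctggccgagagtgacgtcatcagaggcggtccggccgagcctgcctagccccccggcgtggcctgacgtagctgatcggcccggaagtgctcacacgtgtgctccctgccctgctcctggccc
ZNF467 and ZNF32 each held 1 GC box, ZNF362 held 3, of which 2 lie end to end, and ZNF32 held the only ZNF143 core of the 4 windows. In ZNF593 none of the 5 motifs searched was found. Over the 80 members with a promoter in the table, 75% held a GC box, against 44.6% of all 27305 promoters of the same length. The ZNF143 core was in 8.75% of the members' promoters and in 2.95% of all promoters. ACAAT, the core bound by SOX proteins, was in 22.5% and 28%, and the AP-1 site TGANTCA was in 3.75% and 7.76%. The p53-family core, a pair of CATG letters 6 bases apart, was in 0 of the members' promoters and in 0.392% of all promoters. The members' promoters had a median GC content of 66.2%, against 58.3% over all promoters, and a median CpG observed-over-expected ratio of 0.847, against 0.58. The 27305 promoters were taken without regard to expression, while members were chosen by level, so these gaps are not shown to belong to ZNF genes. No comparison was made with other expressed genes or at equal GC content. Motif matches here are descriptions of letters and not of binding.

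The members were mostly of modest level. The median member had a mean of 3.89 RPKM, against 4.32 RPKM over the 10536 genes with a mean of at least 1 RPKM that were tested. Means ran from 2.01 to 16.1 RPKM, and 5 members reached 10. ZNF385A led with 16.1 RPKM; its protein binds RNA and also p53, and steers p53 towards cell cycle arrest genes. ZNF639 had 15.2 RPKM, lies on chromosome 3 like SOX2 and TP63, and was first described as a gene amplified in squamous carcinoma. ZNF787 had 15.1, ZNF358 14.7 and ZNF598 10.6 RPKM, the last being the ubiquitin ligase that marks small ribosomal subunits where ribosomes collide. Just inside the threshold lay ZNF767 with 2.05, ZNF551 with 2.02 and ZNF18 with 2.01 RPKM, and just outside it ZNF398 with 1.98, ZNF587 with 1.96 and ZNF274 with 1.96. In every group 78 members had a mean of at least 2 RPKM. ZNF532, ZNF767, ZNF562, ZNF18, ZNF791, ZNF652 and ZNF467 passed it only through the group where they were highest, so that a difference between groups was built into their choice.

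**Figure D1:**
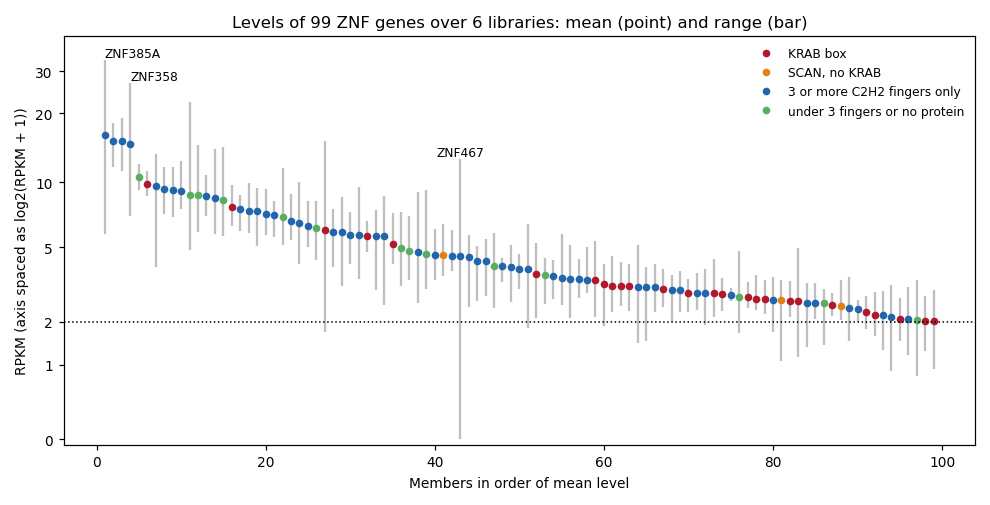
Mean RPKM of each of the 99 members (points, coloured by protein class) and its range over the 6 libraries (bars), ordered by mean, with the threshold of 2 RPKM as a dotted line. The axis is spaced as log2(RPKM + 1). ZNF385A leads with a mean of 16.1 RPKM, and the bar of ZNF467 reaches down to 0.

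By their GENCODE proteins the expressed members differed in kind from the ZNF genes under the threshold. A KRAB box was found in 26 of the 98 members with a translated protein (26.5%), against 315 of 411 ZNF rows under the threshold (76.6%). Members had a median of 8 C2H2 fingers, against 11 under the threshold. A SCAN domain was found in 9 members, 6 of which also had a KRAB box. ZNF142 had the highest finger count among members, 35, and ZNF469 the longest protein, 3953 amino acids. Another 13 members had under 3 fingers matching the C2H2 pattern, among them ZNF259, ZNF503 and ZNF703 with 0. Symbols have changed for ZNF259, now ZPR1, and ZNF498, now ZSCAN25, and ZNF767 is now listed as the pseudogene ZNF767P. Chromosome 19 held 24 members, of which 8 had a KRAB box. In gene order 16 members sat in 8 directly neighbouring pairs, such as ZNF580 with ZNF581 and ZNF282 with ZNF212.

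Sequence shared with other genes limits some of these levels, because nothing in the labels or the table says how the authors counted shared reads. As much as 87.7% of the 50-base stretches of ZNF593 transcripts recur, on either strand, in transcripts of another annotated gene, AL391650.1. The share was 72.7% for ZNF337, with its antisense gene ZNF337-AS1, and 31.8% for ZNF32, with ZNF32-AS1 and ZNF32-AS2. In all, 10 members had a share over 25%, 41 had one under 1%, and the median was 2.11%. For ZNF467, ZNF362 and ZNF469 the share was 0.

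Members varied less over the 6 libraries than all genes tested, in a comparison not matched for level. Their median range from the lowest to the highest library was 0.74, against 0.98 over all genes tested, and 71 of 99 (71.7%) had a range under 1, against 51.5% of all genes. ZNF526 was the steadiest, with a range of 0.18, and ZNF467 the least steady, with 3.78. Between the induced shTP63 libraries the median member differed by 0.19, against 0.28 over all genes. Between the induced shSOX2 libraries it differed by 0.25, against 0.30, and between the uninduced libraries of the 2 lines by 0.26, against 0.29. All members together summed to 452.8 to 577.2 RPKM in a library. The members whose pattern was most like that of the median member over the 6 libraries were ZNF18 (Pearson r 0.97, Spearman rho 0.94), ZNF446 (0.94 and 1.00), ZNF639 (0.88 and 0.89), ZNF652 (0.83 and 0.83) and ZNF74 (0.80 and 0.77).

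**Figure D2:**
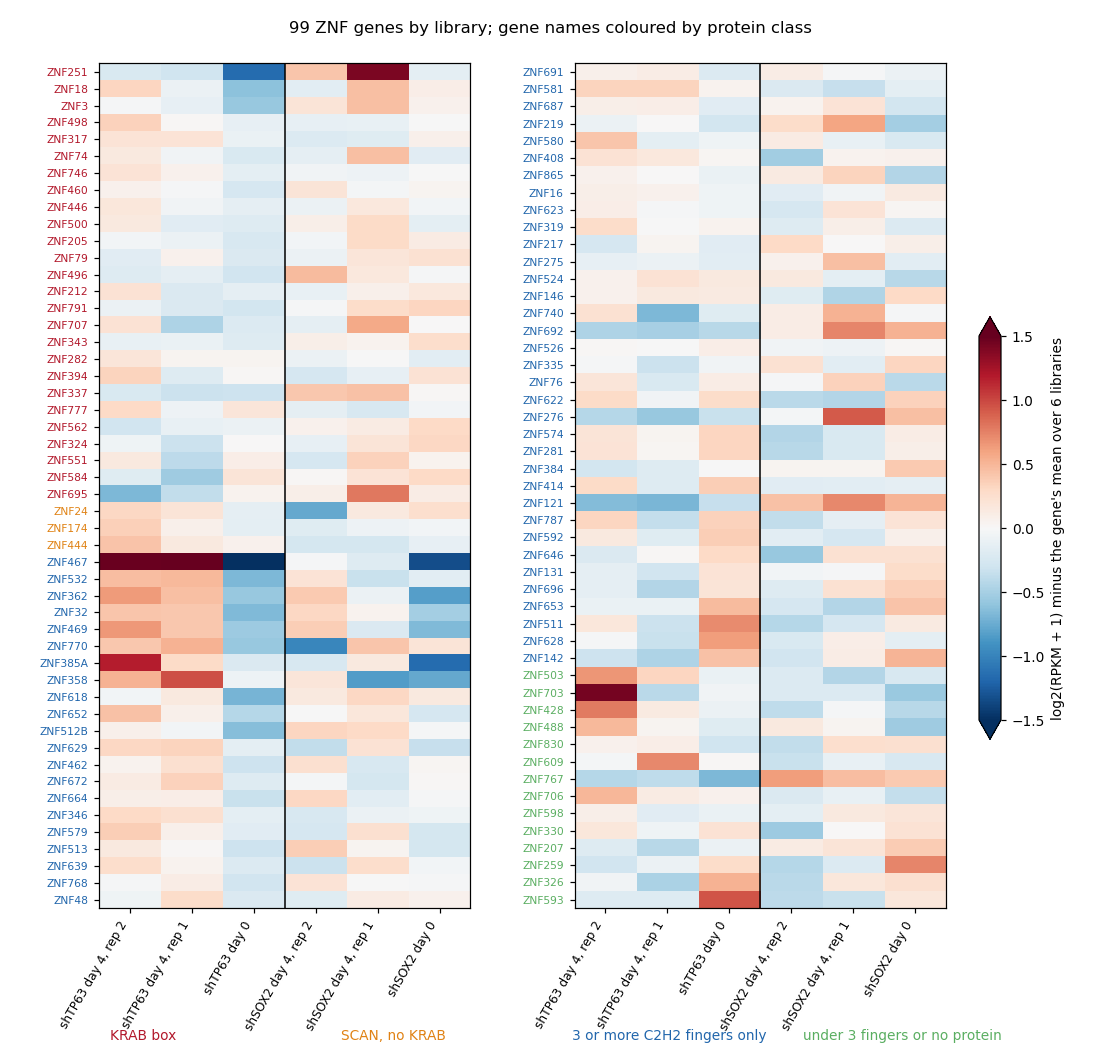
Level of each member in each library, minus the gene's own mean over the 6 libraries, on the log2(RPKM + 1) scale (red above, blue below, colours saturating at 1.5 in either direction). Gene names are coloured by protein class and ordered within each class by the TP63 hairpin difference. ZNF467 is the deepest contrast, and most rows are pale.

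ZNF467 had the widest differences of all members. It encodes a C2H2 protein with 13 fingers and no KRAB box, and its mouse counterpart bears on the fate of bone marrow stromal cells. It is also 1 of the 7 members that passed the level rule only through their highest group, here the induced shTP63 libraries. A difference was thus built into its choice, and the p-values given for it describe these libraries and support nothing about the members. Its level was 3.35 and 3.78 in induced shTP63 libraries, and it was listed at 0 in the uninduced shTP63 library. The level was 1.85 and 1.67 in induced shSOX2 libraries, against 0.53 in the uninduced one. Both induced lines lay above both uninduced libraries, and the induced shTP63 libraries above the induced shSOX2 libraries, with no overlap. The TP63 hairpin difference was 3.56 ± 0.32 (standard error from limma), with a Benjamini-Hochberg adjusted p of 0.0332. Across the alternatives run, that adjusted p ranged from 0.00228 to 0.274 and passed 0.05 in 7 of 13. The call was lost when either induced shSOX2 library was left out, and the cause was not tested. With the uninduced shSOX2 library as the control, an alternative chosen after seeing the data, the difference was 3.03 with a limma adjusted p of 0.0262. The SOX2 hairpin difference of 1.23 ± 0.32 did not pass (limma adjusted p 0.364). The test of the difference between the 2 responses, 2.34 ± 0.45, did not pass either (limma adjusted p 0.995).

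Genes near ZNF467 in RefSeq order were also read, since it lies in a stretch of chromosome 7 with several zinc finger genes. The genes read were chosen after the values of ZNF467 were seen. ZNF282, ZNF212, ZNF777, ZNF746 and ZNF767 are members in that stretch. Their TP63 hairpin differences were 0.05, 0.13, -0.07, 0.29 and 0.27, and none passed the test. ZNF862, the next protein-coding gene on the other side and under the threshold, had 1.74 and 1.95 in induced shTP63 libraries, against 0.75 in the uninduced one. It had 1.67 and 1.43 in induced shSOX2 libraries, against 1.21 in the uninduced one.

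After TP63 hairpin induction few members lay far from day 0, with ZNF467, ZNF532, ZNF362, ZNF32 and ZNF469 at the upper end and ZNF593 at the lower. By limma 1 of the 99 members, ZNF467, had a call at an adjusted p under 0.05, against 0.019% of all genes tested. At an unadjusted p under 0.05 there were 9 members (9.09%), against 14.6% of all genes. A separate rule of size asked for at least 1.5-fold on the deposited scale, the same way in both induced libraries. It was met upwards by 10 members (10.1%, against 9.39% of all genes) and downwards by 3 (3.03%, against 9.17%). The median difference of the members was 0.15, against 0.00 over all genes, and 65 of 99 were above 0 (65.7%, against 50% of all genes). That excess depends on the single day 0 library: with the uninduced shSOX2 library as control the median was 0.02 and 52 of 99 were above 0 (52.5%), against 50% of all genes. In either direction 13 members met the rule of size (13.1%, against 18.6% of all genes). After SOX2 hairpin induction 8 did (8.08%, against 13.7%). With both day 0 libraries as the control it was 12 of 99 after either induction. Of all genes, 17.9% then met it for the TP63 hairpin and 16.5% for the SOX2 hairpin.

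No other member passed the test after TP63 hairpin induction, and the values of those that met the rule of size follow. ZNF532, which forms a complex with ZNF592, ZNF687 and the chromatin reader ZMYND8, had 2.05 and 2.08 in induced shTP63 libraries, against 0.92 in the uninduced one. The difference was 1.15 ± 0.33 (limma adjusted p 0.195), and 0.64 with the uninduced shSOX2 library as the control (limma adjusted p 0.35). ZNF532 too passed the level rule only through its highest group. Of its partners, ZNF592 had 3.07 and 2.75 in induced shTP63 libraries, against 3.30 in the uninduced one, and ZNF687 had 3.18 and 3.19 in induced shTP63 libraries, against 2.92 in the uninduced one. ZNF618, a partner of UHRF2 that binds 5-hydroxymethylcytosine, had 1.97 and 2.16 in induced shTP63 libraries, against 1.32 in the uninduced one. Its difference of 0.74 ± 0.30 (limma adjusted p 0.317) turned to -0.09 with the uninduced shSOX2 library as the control. In both genes the uninduced shTP63 library was the lowest of the 6.

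ZNF32 had 3.09 and 3.08 in induced shTP63 libraries, against 2.01 in the uninduced one, a difference of 1.07 ± 0.32 (limma adjusted p 0.205). ZNF362, a relative of ZNF384, had 3.27 and 3.08 in induced shTP63 libraries, against 2.07 in the uninduced one, a difference of 1.10 ± 0.35 (limma adjusted p 0.228). ZNF469, the gene mutated in brittle cornea syndrome, had 2.61 and 2.37 in induced shTP63 libraries, against 1.42 in the uninduced one, a difference of 1.07 ± 0.35 (limma adjusted p 0.241). In all 3 genes both induced libraries lay above the uninduced one by more than they differed from each other, but none passed the test. ZNF251, ZNF358, ZNF512B and ZNF770 also met the rule of size upwards.

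Downwards, ZNF593, whose yeast counterpart takes part in export of the large ribosomal subunit, had 2.22 and 2.22 in induced shTP63 libraries, against 3.36 in the uninduced one. Its difference was -1.14 ± 0.30 (limma adjusted p 0.177), and as shown above most of its sequence is shared with an overlapping annotated gene. ZNF142 had 1.79 and 1.64 in induced shTP63 libraries, against 2.54 in the uninduced one, a difference of -0.83 ± 0.32 (limma adjusted p 0.3). ZNF628 had 2.12 and 1.81 in induced shTP63 libraries, against 2.77 in the uninduced one, a difference of -0.80 ± 0.33 (limma adjusted p 0.316). The uninduced shTP63 library held the highest ZNF593 and ZNF628 levels of the 6, and with the uninduced shSOX2 library as control the differences were -0.36 for ZNF593 and -0.04 for ZNF628.

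**Figure D3:**
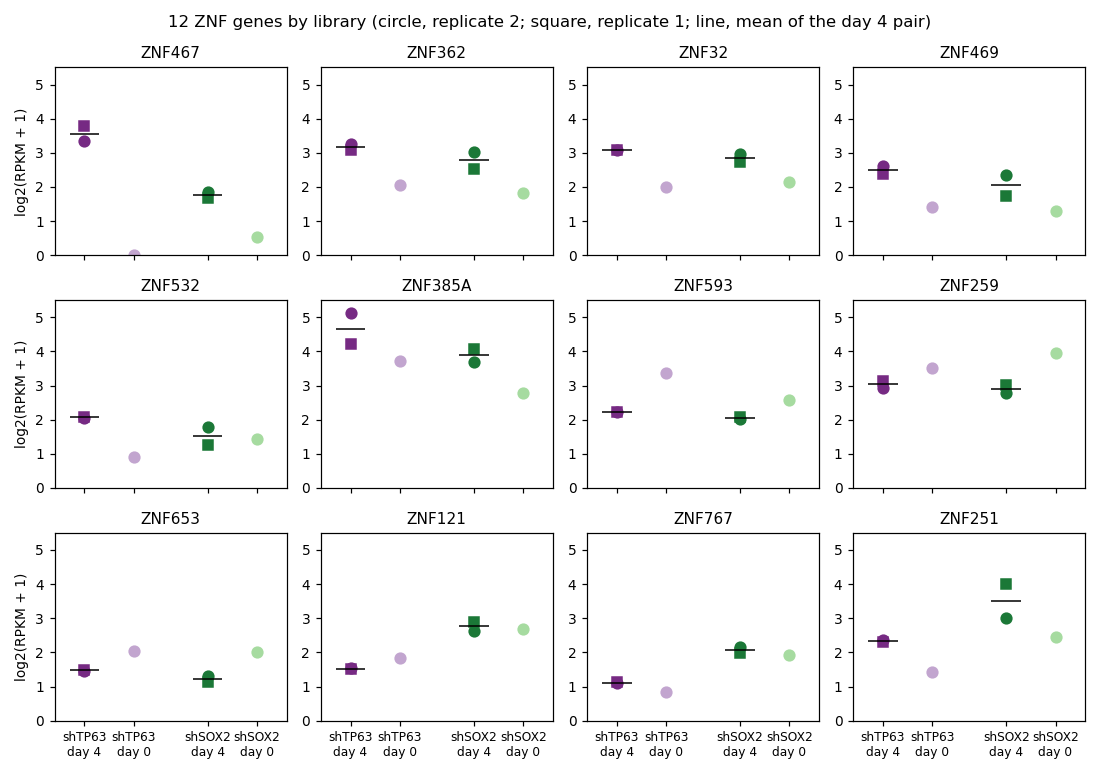
Levels of 12 members, as log2(RPKM + 1), in induced (day 4) and uninduced (day 0) libraries of the shTP63 line and the shSOX2 line. Circles are libraries numbered 2, squares libraries numbered 1, and lines the mean of each induced pair. ZNF467 has the widest gap, with 3.35 and 3.78 in induced shTP63 libraries and 0 in the uninduced one.

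Induction of the SOX2 hairpin gave no call among members. By limma 0 of 99 were called at an adjusted p under 0.05, against 0% of all genes tested, and 7 (7.07%) had an unadjusted p under 0.05, against 10.4% of all genes. The rule of size was met upwards by 5 members (5.05%, against 7.85% of all genes) and downwards by 3 (3.03%, against 5.85%). The median member difference was -0.01, against -0.05 over all genes.

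Besides ZNF467, 4 members met that rule upwards. ZNF385A, the p53 partner, had 3.69 and 4.08 in induced shSOX2 libraries, against 2.77 in the uninduced one, a difference of 1.12 ± 0.45 (limma adjusted p 0.46). ZNF362 had 3.03 and 2.54 in induced shSOX2 libraries, against 1.81 in the uninduced one, a difference of 0.98 ± 0.35 (limma adjusted p 0.431). ZNF219, whose mouse counterpart is a partner of SOX9 in cartilage, had 3.14 and 3.46 in induced shSOX2 libraries, against 2.36 in the uninduced one, a difference of 0.94 ± 0.33 (limma adjusted p 0.431). ZNF488, whose mouse counterpart acts in oligodendrocyte development, had 2.45 and 2.34 in induced shSOX2 libraries, against 1.76 in the uninduced one, a difference of 0.64 ± 0.33 (limma adjusted p 0.539).

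Downwards were ZNF259, ZNF653 and ZNF622. ZNF259 encodes ZPR1, a protein that binds growth factor receptors and the translation factor eEF1A, and had 2.79 and 3.02 in induced shSOX2 libraries, against 3.96 in the uninduced one. The difference was -1.06 ± 0.33 (limma adjusted p 0.414). ZNF653 had 1.32 and 1.13 in induced shSOX2 libraries, against 2.00 in the uninduced one, a difference of -0.77 ± 0.29 (limma adjusted p 0.441). ZNF622, a maturation factor of the large ribosomal subunit, had 2.63 and 2.60 in induced shSOX2 libraries, against 3.38 in the uninduced one, a difference of -0.77 ± 0.33 (limma adjusted p 0.481). In the shTP63 line ZNF622 had 3.33 and 2.98 in induced libraries, against 3.31 in the uninduced one, so that the uninduced level lay between the induced ones.

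In the mean response of both lines 1 member, ZNF467, was called, with a difference of 2.39 ± 0.23 (limma adjusted p 0.0357), against 0.0569% of all genes. Its call held in 5 of 10 alternatives, with limma adjusted p-values from 0.00187 to 0.158. With no filter on low values it was lost (limma adjusted p 0.0574), and ZNF593 was called in its place (0.0439). That unfiltered fit called 1232 of all 48644 gene rows, against 6 of the 10536 genes in the main fit. In the main fit 13 members (13.1%) had an unadjusted p under 0.05, against 20.6% of all genes. ZNF362 was the next member by p, with 1.04 ± 0.25 (limma adjusted p 0.0985). ZNF32 followed with 0.88 ± 0.22 (0.109), ZNF593 with -0.83 ± 0.21 (0.11) and ZNF469 with 0.91 ± 0.25 (0.122). In the shSOX2 line ZNF32 had 2.98 and 2.73 in induced libraries, against 2.16 in the uninduced one. ZNF469 had 2.34 and 1.75 in induced shSOX2 libraries, against 1.30 in the uninduced one, and ZNF593 had 2.02 and 2.08 in induced shSOX2 libraries, against 2.58 in the uninduced one. At least 1.5-fold in all 4 induced libraries were 2 members upwards, ZNF362 and ZNF467 (2.02%, against 2.54% of all genes), and 0 downwards (2.11% of all genes). In every induced library 24 members were above day 0 of the same line (24.2%, against 19.4% of all genes). Below it in every induced library were 20 (20.2%, against 23%).

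By sign alone, the 2 responses went opposite ways in every induced library for 14 members (14.1%, against 8.13% of all genes). All 14 were higher after TP63 hairpin induction and lower after SOX2 hairpin induction. In 1 induced shSOX2 library the difference was only -0.00 for ZNF408 and -0.02 for ZNF346. None went the other way, against 6.16% of all genes. These counts lean on the uninduced shTP63 library for the TP63 side. ZNF791, 1 of the 14, passed the level rule only through its highest group, uninduced shSOX2, so a difference was built into its choice. The 3 members with a SCAN domain and no KRAB box were all among the 14. ZNF24, whose mouse counterpart keeps neural progenitors dividing, had 2.14 and 2.02 in induced shTP63 libraries, against 1.69 in the uninduced one, and 1.06 and 1.98 in induced shSOX2 libraries, against 2.08 in the uninduced one. ZNF174, a repressor of growth factor promoters, had 2.14 and 1.86 in induced shTP63 libraries, against 1.64 in the uninduced one, and 1.60 and 1.71 in induced shSOX2 libraries, against 1.74 in the uninduced one. ZNF444 had 2.89 and 2.61 in induced shTP63 libraries, against 2.52 in the uninduced one, and 2.19 and 2.20 in induced shSOX2 libraries, against 2.34 in the uninduced one. Tested directly, the difference between responses called 0 members by limma at an adjusted p under 0.05, against 0% of all genes. ZNF467 alone (1.01%) had an unadjusted p under 0.05, against 4.55% of all genes. The median member difference between responses was 0.16, against 0.03 over all genes.

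**Figure D4:**
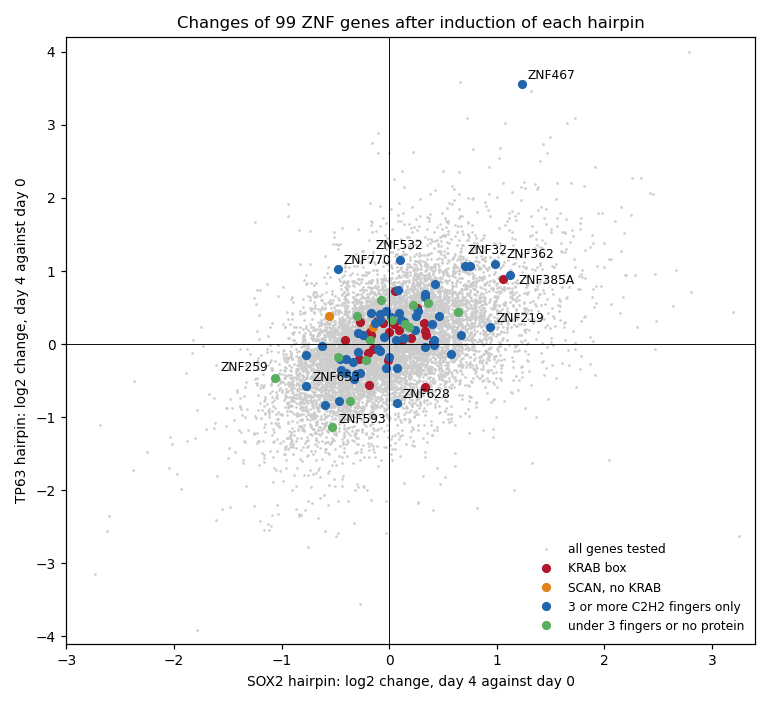
TP63 hairpin difference against SOX2 hairpin difference (day 4 minus day 0, log2 scale) for the 99 members (coloured by protein class) over all 10536 genes tested (grey). Members lie mostly within 1 unit of 0 on both axes, and ZNF467 lies apart, at 3.56 for the TP63 hairpin and 1.23 for the SOX2 hairpin.

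Induced shTP63 libraries were also set directly against induced shSOX2 libraries, the only comparison with a pair on each side. It called 1 member, ZNF467, with a difference of 1.80 ± 0.26 (limma adjusted p 0.0448), against 0.759% of all genes. Its call held in 5 of 10 alternatives, with limma adjusted p-values from 0.0194 to 0.496. At an unadjusted p under 0.05 were 11 members (11.1%), against 23% of all genes. The levels of the lines did not overlap for 32 members higher in induced shTP63 libraries (32.3%, against 30.5% of all genes) and for 22 lower (22.2%, against 26.6%).

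Of the 22 members lower in induced shTP63 libraries, 20 (90.9%) were also lower in the uninduced shTP63 library than in the uninduced shSOX2 library, against 72.5% of all genes lower in this way. Of the 32 higher ones, 18 (56.2%) were also higher before induction, against 70.8% of all genes. ZNF562, ZNF767 and ZNF791 among the 22, and ZNF467 and ZNF532 among the 32, passed the level rule only through their highest group. A difference between groups was thus built into their choice, and the p-value given below for ZNF767 is only a description. None of the members named next passed the adjusted test. ZNF121 had 1.53 and 1.5 in induced shTP63 libraries, against 2.62 and 2.90 in induced shSOX2 libraries, with a difference of -1.24 ± 0.25 (limma adjusted p 0.0791). Uninduced levels were 1.84 in the shTP63 line and 2.69 in the shSOX2 line. The pseudogene ZNF767 had 1.09 and 1.14 in induced shTP63 libraries, against 2.15 and 1.98 in induced shSOX2 libraries, with a difference of -0.95 ± 0.23 (limma adjusted p 0.096), and its uninduced levels were 0.85 in the shTP63 line and 1.91 in the shSOX2 line. The KRAB gene ZNF251 had 2.37 and 2.30 in induced shTP63 libraries, against 3.01 and 4.01 in induced shSOX2 libraries, with a difference of -1.17 ± 0.36 (limma adjusted p 0.137), and its uninduced levels were 1.44 in the shTP63 line and 2.45 in the shSOX2 line. ZNF692, ZNF337 and ZNF276 were likewise lower in the uninduced shTP63 library than in the uninduced shSOX2 library, at 2.25 against 3.19, 1.72 against 2.05 and 2.08 against 2.86. ZNF695, the last of the 7 lower members with an unadjusted p under 0.05, had 1.11 and 1.41 in induced shTP63 libraries. Its induced shSOX2 libraries had 1.87 and 2.58. The uninduced levels of ZNF695 were nearly equal, at 1.84 in the shTP63 line and 1.89 in the shSOX2 line. With 1 uninduced library per line, a difference between the lines before induction has no replicate check.

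Higher in induced shTP63 libraries, after ZNF467, were ZNF503, ZNF358 and ZNF581. ZNF503, a corepressor of the same small family as ZNF703, had 2.53 and 2.19 in induced shTP63 libraries, against 1.66 and 1.43 in induced shSOX2 libraries, a difference of 0.81 ± 0.26 (limma adjusted p 0.141). ZNF358 had 4.36 and 4.80 in induced shTP63 libraries, against 4.01 and 3.00 in induced shSOX2 libraries, a difference of 1.07 ± 0.39 (limma adjusted p 0.169). ZNF581 had 3.67 and 3.66 in induced shTP63 libraries, against 3.11 and 2.99 in induced shSOX2 libraries, a difference of 0.62 ± 0.26 (limma adjusted p 0.213). ZNF703, a breast cancer oncogene, reached 4.54 in 1 induced shTP63 library and 2.70 in the other, against 2.91 and 2.90 in induced shSOX2 libraries.

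By protein class the 26 KRAB members had a median difference between induced lines of -0.17, and 8 of the 26 (30.8%) were above 0, against 57.6% of all members and 53.8% of all genes. For the 56 members with 3 or more fingers and no KRAB or SCAN domain the median was 0.14, with 36 (64.3%) above 0. The KRAB members' median level was 1.97 and 1.79 in induced shTP63 libraries and 1.73 in the uninduced one. It was 1.95 and 2.13 in induced shSOX2 libraries and 2.08 in the uninduced one, so that the induced libraries of the lines overlapped. After TP63 hairpin induction the median difference was 0.13 in KRAB members and 0.13 in the fingers-only class, and after SOX2 hairpin induction it was -0.00 and 0.04. The 26 KRAB members include ZNF562, ZNF791 and ZNF18, and the fingers-only class includes ZNF467, ZNF532 and ZNF652. These genes passed the level rule only through their highest group, so a difference between groups was built into their choice. The class medians and shares are therefore descriptions. They cover members that passed the level rule and support nothing about KRAB genes in general.

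**Figure D5:**
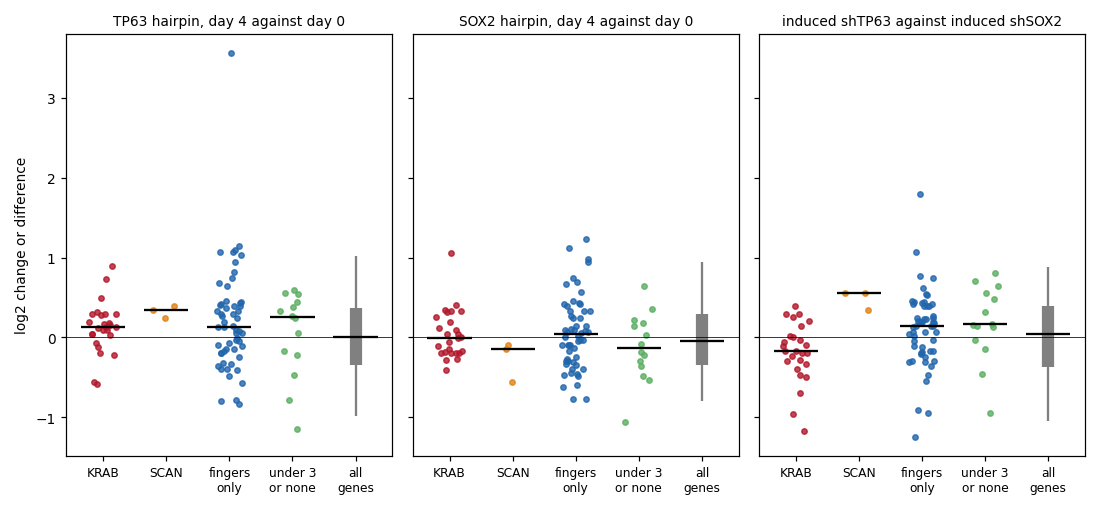
Differences of single members (points) by protein class in 3 comparisons, with class medians (black lines), beside the middle 50% (thick bar) and 90% (thin line) of all genes tested. KRAB members have a median of -0.17 between induced lines, against 0.05 over all genes.

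Several lists of ZNF genes with known roles gave a picture of what these cells expressed. Of 11 KRAB genes studied as silencers of transposons or of other genes, such as ZNF91 and ZNF93, none reached 2 RPKM. ZNF10, the source of the KRAB domain used in many engineered repressors, was listed at 0 in all 6 libraries. The squamous differentiation factor ZNF750, a target of p63 in keratinocytes, was also under the threshold, with 0.12 and 0.05 in induced shTP63 libraries, against 0.45 in the uninduced one, and 0.14 and 0.13 in induced shSOX2 libraries, against 0.11 in the uninduced one. ZNF185, an actin-associated protein of epithelial junctions, had 0.69 and 1.05 in induced shTP63 libraries, against 0.21 in the uninduced one, and 0.62 and 0.19 in induced shSOX2 libraries, against 0.01 in the uninduced one. ZNF10, ZNF750 and ZNF185 had means under 1 RPKM and were not tested. Of the 11 KRAB genes 2 were tested, ZNF274 and ZNF354A, and neither was called in either induction.

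Promoter-binding factors were represented by 3 members of 6 listed genes, ZNF76, ZNF281 and ZNF384, and 0 of the 6 was called in either induction. Of 13 corepressor and chromatin partners, 7 were members, and their TP63 hairpin differences ran from -0.39 to 1.15 with 6 of 7 above 0 (85.7%, against 65.7% of all members and 50% of all genes). With the uninduced shSOX2 library as the control 5 of 7 were above 0, against 52.5% of all members. ZNF217, an oncogene product bound to the CoREST complex, was steady, with 3.01 and 3.31 in induced shTP63 libraries, against 3.10 in the uninduced one, and 3.56 and 3.27 in induced shSOX2 libraries, against 3.35 in the uninduced one. Of 14 genes acting in RNA, ribosome, ubiquitin, SUMO or spindle biology, 10 were members and 11 were tested. Their SOX2 hairpin differences had a median of -0.29 with 1 of 11 above 0, against -0.05 and 46% over all genes, and the exception was ZNF385A. ZNF207, which carries BUB3 to kinetochores, had 2.63 and 2.41 in induced shTP63 libraries, against 2.73 in the uninduced one, and 2.94 and 3.02 in induced shSOX2 libraries, against 3.20 in the uninduced one. ZNF326, part of a complex that couples elongation to splicing, had 2.48 and 2.06 in induced shTP63 libraries, against 3.05 in the uninduced one, and 2.12 and 2.70 in induced shSOX2 libraries, against 2.77 in the uninduced one. None of these lists held a call.

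TRIM28, the corepressor that KRAB proteins recruit, averaged 84.3 RPKM, above the 16.1 RPKM of the leading member. Of 35 listed genes of its partners and downstream enzymes, TRIM28 included, 32 were tested. None was called in either induction by limma at an adjusted p under 0.05. At an unadjusted p under 0.05, 2 were higher and 3 lower after TP63 hairpin induction (15.6%, against 14.6% of all genes). After SOX2 hairpin induction 0 were higher and 2 lower (6.25%, against 10.4%). Both shares are near or below those of all genes, and single values follow as description. TRIM28 itself had 6.20 and 6.25 in induced shTP63 libraries, against 6.58 in the uninduced one, and 6.22 and 6.17 in induced shSOX2 libraries, against 6.90 in the uninduced one. UHRF1, which brings DNMT1 to newly copied DNA, had 2.09 and 1.77 in induced shTP63 libraries, against 4.19 in the uninduced one, a difference of -2.26 ± 0.34 (limma adjusted p 0.113). After SOX2 hairpin induction UHRF1 had 2.93 and 2.70 in induced shSOX2 libraries, against 4.37 in the uninduced one, a difference of -1.55 ± 0.34 (limma adjusted p 0.323). DNMT1 had 3.69 and 4.47 in induced shTP63 libraries, against 5.02 in the uninduced one, and 4.31 and 4.18 in induced shSOX2 libraries, against 5.24 in the uninduced one. CHD3, a subunit of the NuRD complex, had the opposite pattern, with 4.62 and 4.35 in induced shTP63 libraries, against 3.33 in the uninduced one, and 4.59 and 3.76 in induced shSOX2 libraries, against 3.46 in the uninduced one. The other 3 with an unadjusted p under 0.05 after TP63 hairpin induction were DNMT3A, higher by 0.79 ± 0.28 (limma adjusted p 0.272), and SUV39H1 and SUV39H2, which had differences of -1.15 ± 0.39 (0.255) and -0.66 ± 0.27 (0.326).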

How the data were processed

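Poly(A) RNA was sequenced in 6 libraries. The deposited table gives 1 value per gene and library, named RPKM; its log2 values were read as log2(RPKM + 1), apparently brought by the authors to 1 shared distribution, since all 6 libraries have the same highest value. With base 2 the values imply that 26796 genes with a GENCODE length hold 0.507 to 0.525 of a library's reads, and with natural logs 3.24 to 3.96 times all its reads, which cannot be. The submitters' processing notes name hg19. The aligner, the counter and the gene annotation used: not given in the sources used here. Depth per library is unknown. Linear values are 2 to the power of the value, minus 1.

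Genes with a mean of at least 1 RPKM (10536) were fitted in limma 3.58.1 (R 4.3.3) with 4 group means, a mean-variance trend, 2 residual and 5.5 prior degrees of freedom. P-values are two-sided and adjusted after Benjamini and Hochberg over all 10536 genes, with a call under 0.05. With 1 uninduced library per line, its spread is taken from the induced pairs. The model was tested on simulated data. Genes are named when both induced libraries were at least 1.5-fold from day 0 the same way, up to 6 per direction by p, with further genes chosen after their values were seen. The members, classes and 11 lists were chosen with earlier results of these data known. Neighbouring genes, promoters and current symbols come from RefSeq GRCh38.p14. Protein classes come from GENCODE 29 proteins: fingers by pattern, KRAB and SCAN by pyhmmer 0.12.3 profiles at an E-value of at most 0.001, with 40 of 40 known classes matched. Shared sequence is the share of 50-base stretches found in other genes' transcripts. Python 3.11.15, pandas 2.3.3 and matplotlib 3.10.9 were also used.

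Induced libraries share replicate numbers 1 and 2 between lines, so a replicate block was an alternative. The alternatives varied the filter, pseudocount, scaling, control library, trend, member threshold, and the libraries left out.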

Additional observations from a re-analysis of the deposited data

Results flagged for a closer look

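For 14 members every induced shTP63 library lay above and every induced shSOX2 library below the uninduced library of its line. By sign alone, the 2 responses thus ran opposite ways, and over all genes tested this held for 8.13%. Some differences were near 0, such as -0.02 for ZNF346 and -0.03 for ZNF174 in 1 induced shSOX2 library. Between the induced shSOX2 libraries the median member differed by 0.25. ZNF791, 1 of the 14, passed the level rule only through its highest group. Among the 14 were 4 genes from the lists of known roles, ZNF444, ZNF346, ZNF24 and ZNF174. Their TP63 response minus SOX2 response was 0.38, 0.50, 0.95 and 0.44 on the log2 scale. The test of that difference in limma gave each of the 4 an adjusted p of 0.995. The uninduced shTP63 library, which has the fewest genes above 0, is the control of 1 side of each difference, and its part in the result was not tested.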

How the results depend on the processing

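The uninduced libraries are single, the induced groups hold 2 libraries, and depth is unknown, so small differences among the members were not detectable here. The calls of ZNF467 sat near the threshold, and its direction held in each comparison under the alternatives run. In the TP63 hairpin comparison 0 members were called with no filter on low values, at a filter or member threshold of 5 RPKM (which leaves 35 members and drops ZNF467), with a pseudocount of 5, with the 3 libraries of the line alone and with the replicate block. With both day 0 libraries as the control 2 were called, ZNF467 and ZNF362 (limma adjusted p 0.0499). Between induced lines 0 were called with no filter, at 5 RPKM, with a pseudocount of 5 and with the block, and over both lines 0 at 5 RPKM, with a pseudocount of 5 and with the block. With no filter ZNF593 was the 1 member called over both lines, and not ZNF467, in a fit that called 1232 of all 48644 gene rows. Leaving out 1 induced library at a time gave 0 to 1 called members for the TP63 hairpin, 0 to 2 between induced lines (the 2 were ZNF467 and ZNF703) and 0 to 1 over both lines; the 0 came without either induced shSOX2 library. The cause of these losses was not tested, other than the drop of ZNF467 at 5 RPKM.

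Medians of the members' differences moved by more than the spread between replicates in 18 of 63 values. At 5 RPKM they were 0.09 for the SOX2 hairpin, 0.29 for the TP63 hairpin and 0.19 over both lines. With all 172 ZNF rows of at least 1 RPKM they were -0.09 for the SOX2 hairpin, 0.06 between induced lines and 0.03 over both lines. For the TP63 hairpin the median was 0.08 with a pseudocount of 5, 0.22 with median-ratio scaling and 0.02 with the uninduced shSOX2 library as control, an alternative chosen after seeing the data, under which ZNF618 turned to -0.09. The difference between responses had a median of 0.09 with a pseudocount of 5. Without 1 induced library the median ran from -0.08 to 0.01 for the SOX2 hairpin, from 0.11 to 0.24 for the difference between responses, from 0.01 to 0.14 between induced lines and from 0.04 to 0.14 over both lines. Members at least 1.5-fold apart after SOX2 hairpin induction numbered 5 of 35 at a filter or member threshold of 5 RPKM (all genes 19.1% or 13.7%). They numbered 2 with a pseudocount of 5 (all genes 5.48%) and 13 with one of 0.25 (19.1%). Without 1 library they numbered 8 to 20 (all genes 13.7% to 31.9%). After TP63 hairpin induction they numbered 5 of 35 at 5 RPKM (all genes 22.3% or 18.6%) and 5 with a pseudocount of 5 (7.1%). Without 1 library they numbered 13 to 21 (all genes 18.6% to 32.5%), since 1 induced library then has to pass instead of 2. With both day 0 libraries as the control it was 12 after either induction (all genes 16.5% for the SOX2 hairpin, 17.9% for the TP63 hairpin). Median-ratio scaling shifted the median of all genes by at most 0.07.

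With the replicate block, the shared replicate numbers were put in the model. The deviations of same-numbered induced libraries correlated at -0.07 over 10536 genes, so the numbers are shared labels and not shown to pair the libraries. The limma adjusted p of ZNF467 with the block was 0.156 for the TP63 hairpin, 0.0642 between induced lines and 0.114 over both lines.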
